A study of Homo sapiens with 6 samples.

Results

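Nephron progenitor and kidney development genes were examined for H3K27me3 and H3K4me3 in G401, an established malignant rhabdoid tumor cell line from kidney that lacks the SWI/SNF subunit gene SMARCB1. The genes WT1, PAX2, PAX8, SIX2, EYA1, SALL1, OSR1, LHX1 and GDNF were taken by name, 9 of the 56638 genes in the count table, and all 9 had counts in every library. The cells had been given DMSO or MAK683, an EED inhibitor that blocks PRC2, at 3 µM over 3 days. Both treatments were sequenced once for H3K27me3, once for H3K4me3 and once without an antibody (input), which made 6 libraries of between 13308099 and 21281877 counts. With 1 library per treatment and antibody, the differences below have no replicate check and no p-value was computed. SMARCB1 had 0 counts in both inputs, which allows up to 0.178 CPM (counts per 1000000 counts of the library) in DMSO and 0.154 in MAK683. RNA was not analysed here, so the values are of histone modifications and not of expression.

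PRC2 places the methyl groups of H3K27me3, a mark of repressed developmental genes, and EED is the subunit through which it reads the mark. H3K4me3 marks the promoters of active or poised genes, and genes that carry both marks are often called bivalent. In the forming kidney, OSR1 marks the intermediate mesoderm, and PAX2, PAX8 and LHX1 set up the nephric lineage. EYA1, SIX2, SALL1 and WT1 act in the cap mesenchyme, whose progenitor cells give rise to nephrons, and GDNF, secreted there, calls the ureteric bud to branch through its receptor RET.

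The sequence before the start of a gene is shown for 4 genes because the CG dinucleotides of such regions are where PRC2 and H3K4 methyltransferases are often found. The 4 genes differ in H3K27me3 below. In H3K4me3, PAX2 is above the other 3, whose intervals overlap. Each sequence is the 250 bases before the outermost start in RefSeq, found at a single place in GRCh37, the build of the files (hg19). CG, which reads the same on both strands, is in capitals. The windows are PAX2 at chr10:102494903-102495152 on the plus strand, WT1 at chr11:32457086-32457335, PAX8 at chr2:114036499-114036748 and SIX2 at chr2:45236592-45236841, all 3 on the minus strand.
PAX2: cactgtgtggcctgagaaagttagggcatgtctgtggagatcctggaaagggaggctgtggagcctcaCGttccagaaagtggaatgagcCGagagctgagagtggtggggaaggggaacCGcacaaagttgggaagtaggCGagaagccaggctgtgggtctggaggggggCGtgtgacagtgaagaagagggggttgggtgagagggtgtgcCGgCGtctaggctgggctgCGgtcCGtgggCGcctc
WT1: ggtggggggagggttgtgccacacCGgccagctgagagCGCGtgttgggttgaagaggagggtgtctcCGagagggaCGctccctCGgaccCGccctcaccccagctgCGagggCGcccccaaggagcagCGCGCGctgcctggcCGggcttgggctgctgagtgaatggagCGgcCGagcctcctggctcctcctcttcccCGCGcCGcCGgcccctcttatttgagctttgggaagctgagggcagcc
PAX8: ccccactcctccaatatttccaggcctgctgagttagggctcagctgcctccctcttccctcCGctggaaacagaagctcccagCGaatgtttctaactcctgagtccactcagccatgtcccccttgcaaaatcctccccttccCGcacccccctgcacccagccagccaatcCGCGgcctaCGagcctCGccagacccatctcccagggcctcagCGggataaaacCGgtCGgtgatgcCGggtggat
SIX2: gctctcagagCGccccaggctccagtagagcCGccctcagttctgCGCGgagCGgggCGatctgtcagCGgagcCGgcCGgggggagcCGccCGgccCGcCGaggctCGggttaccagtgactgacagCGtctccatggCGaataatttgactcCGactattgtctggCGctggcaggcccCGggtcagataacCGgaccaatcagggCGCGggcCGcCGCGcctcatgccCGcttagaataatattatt

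PAX2 held 10 CG in its window and PAX8 11, near the median of 11 over the 35116 windows of the RefSeq table. At least as many as in PAX2 were found in 52.2% of these windows. WT1 held 19, reached by 34.6% of windows, and SIX2 26, reached by 19.6%. GDNF also held 26 before its outermost start at chr5:37840144-37840393. Other starts of the same genes gave other counts, 15 CG at a second PAX2 start, 3 to 18 at further WT1 starts and 5 to 18 at further GDNF starts. The counts below were taken over genes and not over these windows.

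Each count covered a gene and not a window at its start. WT1 lies on chromosome 11 from 32409321 to 32457110 on the minus strand, and PAX2 on chromosome 10 from 102495153 to 102589701 on the plus strand. SIX2 lies on chromosome 2 from 45232321 to 45236591 and SALL1 on chromosome 16 from 51169893 to 51186245, both on the minus strand. These 4 genes had between 11.1 and 13.2 DMSO input counts per kb of their span, against a median of 11.5 over 18712 protein-coding genes. The positions are those of GENCODE release 44 on GRCh37. EYA1 (chromosome 8, 72109668 to 72504260, minus strand) had 4.74 input counts per kb of its annotated span of 394.6 kb, and how much of that span was counted is not known.

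OSR1 (chromosome 2, 19551246 to 19558384, minus strand) and LHX1 (chromosome 17, 35294084 to 35301912, plus strand) are short, at 7.14 and 7.83 kb. They had 5.74 and 6.39 DMSO input counts per kb, both under the 25th percentile of protein-coding genes of 6.97. PAX8 (chromosome 2, 113973574 to 114036498, minus strand) shares 60585 bases with the antisense gene PAX8-AS1. Only 2.34 kb at its start, 114034159 to 114036498, belongs to PAX8 alone. Its 23 DMSO input counts came to 0.366 per kb of the whole gene and 9.83 per kb of that stretch, so the PAX8 values are read below as values of the start of the gene. GDNF (chromosome 5, 37812779 to 37840143, minus strand) is wholly overlapped by GDNF-AS1 in this annotation but had 12.4 input counts per kb, and the annotation used for counting is not given in the sources used here.

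Levels are given as log2 of the CPM of a mark over the CPM of the input of the same treatment, with 0.05 CPM added to each. The interval beside a value is an exact 95% Clopper-Pearson interval of the share of the counts turned into log2. Intervals cover counting error only.

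In DMSO, H3K27me3 was at least 2-fold over input at 5 of the 9 genes, OSR1, PAX8, GDNF, WT1 and LHX1. Over all genes, 15.4% of 31031 were, and the median level was -0.61 against 1.32 for the 9 genes. EYA1 and SALL1 were just under this fold, SIX2 was close to input, and PAX2 was below input in CPM. H3K4me3 was at least 2-fold over input at 3 of the 9, LHX1, OSR1 and PAX2, against 23.9% of 30610 genes, and its median of -0.27 was equal to that of all genes to 2 decimals. LHX1 and OSR1 were in both groups, and PAX2 had the promoter mark alone.

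**Figure D1:**
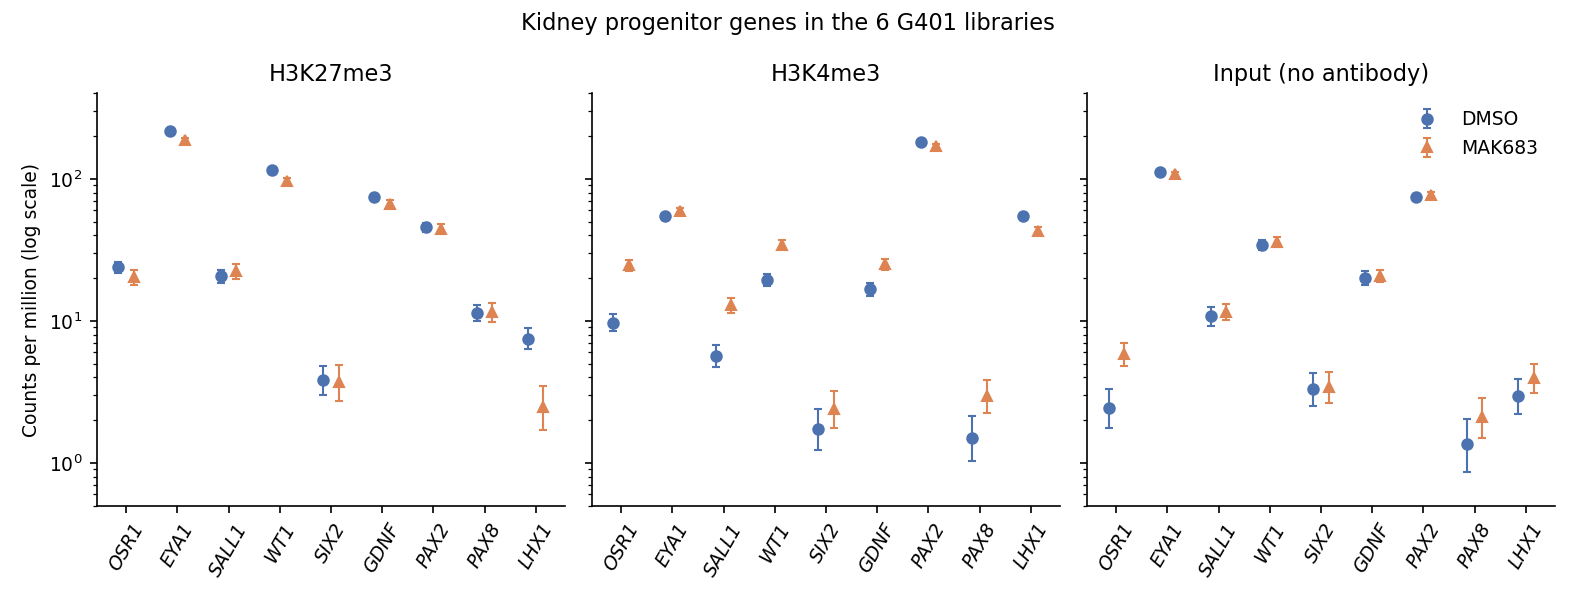
CPM of the 9 genes (log scale) in the H3K27me3, H3K4me3 and input libraries, with DMSO as circles, MAK683 as triangles and exact 95% Poisson intervals as bars, 1 library per point. H3K27me3 at LHX1 went from 7.51 to 2.48 CPM, and H3K4me3 was higher in MAK683 at OSR1, SALL1 and WT1. Input was alike in the treatments at most genes and higher in MAK683 at OSR1.

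OSR1, the zinc finger factor of the intermediate mesoderm, had, with PAX8, the highest H3K27me3 levels of the 9. From DMSO to MAK683, its H3K27me3 counts went from 457 to 270, its H3K4me3 counts from 207 to 486 and its input counts from 41 to 114. In DMSO, H3K27me3 was 9.62-fold over input, a log2 of 3.27 (2.81 to 3.75), above 99.6% of genes, and H3K4me3 was 3.93-fold over input. The DMSO input was low there, and OSR1 was the only one of the 9 genes whose input differed between treatments beyond counting error, by a log2 of 1.25 (0.73 to 1.79). An input at least 2-fold higher in MAK683 was found at 3.37% of genes. With both inputs summed as the reference, the OSR1 level in DMSO was 2.47 for H3K27me3 and 1.18 for H3K4me3, still over 2-fold for both marks, and PAX8 was then above it for H3K27me3, at 2.66.

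EYA1, a phosphatase and transcriptional coactivator, had 4156 H3K27me3 counts with DMSO and 2487 with MAK683, 1166 and 1162 H3K4me3 counts, and 1870 and 2107 input counts. Its H3K27me3 level in DMSO was 0.97 (0.89 to 1.04), and H3K4me3 was below input by a log2 of -1.02 (-1.13 to -0.91). SALL1, a zinc finger factor of the metanephric mesenchyme, had 395 and 297 H3K27me3 counts, 121 and 252 H3K4me3 counts, and 181 and 227 input counts. SALL1 was close to EYA1 for both marks in DMSO, with H3K27me3 1.91-fold over input (1.60 to 2.29) and a H3K4me3 level of -0.91 (-1.25 to -0.58). The intervals of both genes included the 2-fold line, and both passed it with TMM or median-of-ratios scaling between mark and input.

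WT1, the Wilms tumor zinc finger factor, had 2233 H3K27me3 counts with DMSO and 1288 with MAK683, 412 and 676 H3K4me3 counts, and 581 and 702 input counts. H3K27me3 was 3.37-fold over input in DMSO, a log2 of 1.75 (1.62 to 1.89), and H3K4me3 was below input at -0.83 (-1.02 to -0.65). SIX2, the homeobox factor that maintains the progenitors, had 73 and 49 H3K27me3 counts, 37 and 47 H3K4me3 counts, and 56 and 67 input counts. Its H3K27me3 level of 0.19 (-0.32 to 0.71) included input in its interval in CPM and was 0.76 with TMM and 0.81 with median-of-ratios scaling, and H3K4me3 was below input at -0.92 (-1.54 to -0.31). GDNF had 1435 and 886 H3K27me3 counts, 356 and 494 H3K4me3 counts, and 339 and 404 input counts. This ligand had a H3K27me3 level of 1.89 (1.72 to 2.07), which overlapped that of WT1, and a H3K4me3 level of -0.27 (-0.48 to -0.048).

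PAX2 and PAX8, related paired box factors, differed in both marks. PAX2 had 874 H3K27me3 counts with DMSO and 589 with MAK683, 3900 and 3354 H3K4me3 counts, and 1249 and 1499 input counts. In CPM, PAX2 was the one gene of the 9 with H3K27me3 below input beyond counting error in DMSO, at -0.70 (-0.83 to -0.58), near the median of all genes. It was close to input with TMM (-0.12) and median-of-ratios scaling (-0.079), while its H3K4me3 was 2.47-fold over input. PAX8 had 218 and 153 H3K27me3 counts, 32 and 58 H3K4me3 counts, and 23 and 41 input counts. H3K27me3 at PAX8 was 8.07-fold over input in DMSO, at 3.01 (2.41 to 3.67), and H3K4me3 was 0.13 (-0.66 to 0.94). The stretch counted differs, since PAX2 spans 94.5 kb and only the start of PAX8 is unshared.

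LHX1, a LIM homeobox factor of the nephric duct and renal vesicle, had 144 H3K27me3 counts with DMSO and 33 with MAK683, 1161 and 842 H3K4me3 counts, and 50 and 77 input counts. It had by far the highest H3K4me3 level of the 9 in DMSO, 18.1-fold over input or a log2 of 4.18 (3.77 to 4.61), above 97.6% of genes. H3K27me3 was also over input, 2.51-fold, at 1.32 (0.86 to 1.81). LHX1 and OSR1 were the 2 genes with both marks at least 2-fold over input in DMSO, which 1.49% of 29607 genes had. Counts over a gene do not show whether the marks lie on the same nucleosomes, alleles or cells. LHX1 and OSR1 are short, at 7.83 and 7.14 kb, while WT1 spans 47.8 kb and EYA1 394.6 kb. A mark at the start weighs less over a long gene. H3K4me3 below input over a whole gene therefore does not show that its start lacks the mark. SIX2, at 4.27 kb, was short and also below input. What length adds to the order of the 9 genes was not tested.

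In order of H3K27me3 level in DMSO, the genes were OSR1, PAX8, GDNF, WT1, LHX1, EYA1, SALL1, SIX2 and PAX2. Neighbors in this order overlapped in their intervals except PAX8 with GDNF and SIX2 with PAX2. For H3K4me3, LHX1, OSR1 and PAX2 stood apart from each other and from PAX8, the next gene, and WT1, SALL1, SIX2 and EYA1 ended the order with overlapping intervals. With both inputs summed, OSR1 (1.18) was below PAX2 (1.28) in H3K4me3, so these 2 genes did not keep their order. In MAK683 the H3K27me3 order ran from PAX8, OSR1, GDNF and WT1 to SALL1, EYA1, SIX2, LHX1 and PAX2, so LHX1 moved from the fifth place to the eighth.

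**Figure D2:**
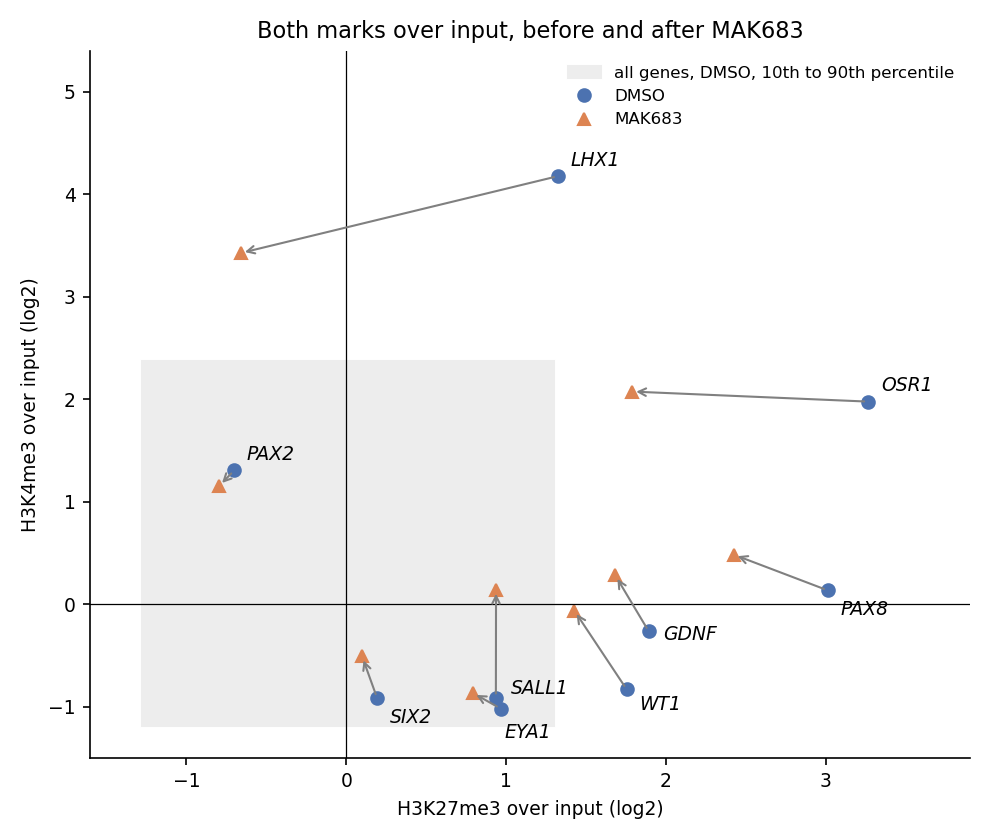
H3K27me3 over input (log2, x axis) against H3K4me3 over input (log2, y axis) for the 9 genes, with an arrow from DMSO (circle) to MAK683 (triangle), and the 10th to 90th percentile of all genes in DMSO as a gray box. LHX1 crossed from 1.32 to -0.66 on the H3K27me3 axis, SALL1 rose from -0.91 to 0.14 on the H3K4me3 axis at the same H3K27me3 level, and PAX2 was inside the box in both treatments. The input of OSR1 was 41 counts in DMSO and 114 in MAK683.

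After MAK683, H3K27me3 remained at least 2-fold over input at 4 of the 9 genes, PAX8, OSR1, GDNF and WT1, against 10.7% of 30959 genes. The levels were 2.42 (1.93 to 2.95) at PAX8, 1.79 (1.47 to 2.11) at OSR1, 1.68 (1.51 to 1.86) at GDNF and 1.43 (1.29 to 1.56) at WT1. The median of the 9 genes was 0.94, that of all genes -0.46. A level over input is a share of a library and does not give the absolute amount of the mark left. LHX1 was then below input in CPM, at -0.66 (-1.28 to -0.063), but nearer to it with TMM (-0.26) and median-of-ratios scaling (-0.20). The median of genes of like GC content was also below input, at -0.63, and LHX1 was close to that median (-0.028 relative to it).

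Changes are log2 of the CPM in MAK683 over that in DMSO, and a gene is called higher or lower from 1.2-fold. No spike-in factors were found with the deposited counts, and whether the counts carry that scaling is not known. A fall that all genes share is not seen in CPM in either case. The study itself reported a massive loss of H3K27me3 over the genome in G401. H3K27me3 was lower at LHX1 and WT1, 2 of the 9 genes, and higher at 0 of them, against 18.5% of 29931 genes lower and 31% higher. The intervals of 5 genes, LHX1, WT1, OSR1, EYA1 and GDNF, lay below 0 and those of the other 4 included it. The median change of the 9 was -0.17, that of all genes 0.079. In the counts as deposited, H3K27me3 was at least 1.2-fold lower at all 9 genes, as it was at 68.7% of all genes, whose median was then -0.44.

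LHX1 lost the most H3K27me3 of the 9, 2.99-fold, a log2 change of -1.58 (-2.16 to -1.03). LHX1 stood at percentile 1.09 of all genes for this change, and a fall of at least 2-fold was found at 3.27% of them. MAK683 held 18.6% (13.2 to 25.2%) of the LHX1 counts, where the library as a whole gave 41.0%. The interval did not overlap that of WT1, the next gene. H3K4me3 at LHX1 was also lower, by a log2 of -0.35 (-0.48 to -0.22). The gene with the strongest fall of H3K27me3 of the 9 was thus not among those with more H3K4me3. Its H3K4me3 was already high, and the 10 housekeeping genes, all at least 2-fold over input in H3K4me3, changed by between -0.38 and -0.016. The fall of H3K4me3 is therefore not particular to LHX1. Relative to its input, which was 50 counts in DMSO and 77 in MAK683, LHX1 changed by -1.98 (SE 0.38) for H3K27me3 and -0.75 (SE 0.27) for H3K4me3, the SE covering counting error only.

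WT1 was just past the call, with a H3K27me3 change of -0.27 (-0.37 to -0.17). EYA1 changed by -0.21 (-0.29 to -0.14), OSR1 by -0.23 (-0.45 to -0.013) and GDNF by -0.17 (-0.29 to -0.048), none of them past 1.2-fold. The intervals of these 4 genes overlapped. SALL1 at 0.11 (-0.11 to 0.33), PAX8 at 0.015 (-0.29 to 0.32), PAX2 at -0.043 (-0.20 to 0.11) and SIX2 at -0.048 (-0.59 to 0.49) had intervals on both sides of 0. The sign at SALL1 and PAX8 was negative in the counts as deposited, and at PAX8 also under 4 other alternatives. Relative to the change of the input, H3K27me3 was lower at 4 of the 9 genes, LHX1, OSR1, PAX8 and WT1, against 22.9% of genes. At PAX8 that value was -0.59 (SE 0.41), within its counting error. At OSR1 that value was -1.48 (SE 0.29), made up of the H3K27me3 change of -0.23 and an input change of 1.25. Why the input differed was not tested.

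H3K4me3 was higher in MAK683 at 6 of the 9 genes, OSR1, SALL1, PAX8, WT1, GDNF and SIX2, against 24.3% of 30028 genes. It was lower at 1, LHX1, against 17.7%. The median change of the 9 was 0.59, that of all genes 0.0032. OSR1 and SALL1 were at least 2-fold higher, as 4.1% of genes were. Relative to the change of the input, H3K4me3 was higher at 5 of the 9, the same genes without OSR1, against 24.9% of genes.

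At OSR1, H3K4me3 was 2.54-fold higher, a log2 change of 1.34 (1.11 to 1.58), and 70.1% (66.6 to 73.5%) of its counts were in MAK683, where the library gave 48.0%. Its input was 2.37-fold higher as well, and relative to input the change was 0.10 (SE 0.29), so the call at OSR1 was lost there. SALL1 was 2.25-fold higher, by 1.17 (0.85 to 1.49), with an input change of 0.11 (-0.17 to 0.40) and 1.05 (SE 0.21) relative to input. Relative to input, SALL1 had the largest H3K4me3 gain of the 9. WT1 was next at 0.77 (SE 0.12), not apart from SALL1 beyond counting error. The H3K4me3 level of SALL1 went from below input to 0.14 (-0.12 to 0.41), an interval that included input.

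WT1 rose by 0.83 (0.65 to 1.01) in H3K4me3, or 1.78-fold, more than 94.2% of genes, and reached the level of input at -0.063 (-0.22 to 0.092). PAX8 rose by 0.95 (0.32 to 1.60) on 32 and 58 counts, and relative to input by 0.35 (SE 0.49), within its counting error. GDNF rose by 0.59 (0.39 to 0.79) to a level of 0.28 (0.089 to 0.47). SIX2 was past the fold at 0.45 (-0.19 to 1.10), but with 37 and 47 counts its change was within counting error. After MAK683 the H3K4me3 level was at least 2-fold over input at the same 3 genes as in DMSO, LHX1, OSR1 and PAX2, against 22.5% of genes.

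PAX2 and EYA1 were the genes with little change of H3K4me3, at -0.10 (-0.17 to -0.034) and 0.11 (-0.0066 to 0.23). In the 10 housekeeping genes the change of H3K4me3 was below 0 in each case, with a median of -0.16 and the value nearest to 0, -0.016, at B2M, the light chain of MHC class I. The changes at PAX2 and LHX1 were also below 0. The 6 genes with higher H3K4me3 are above the housekeeping genes by the call itself, so this is not a separate result.

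**Figure D3:**
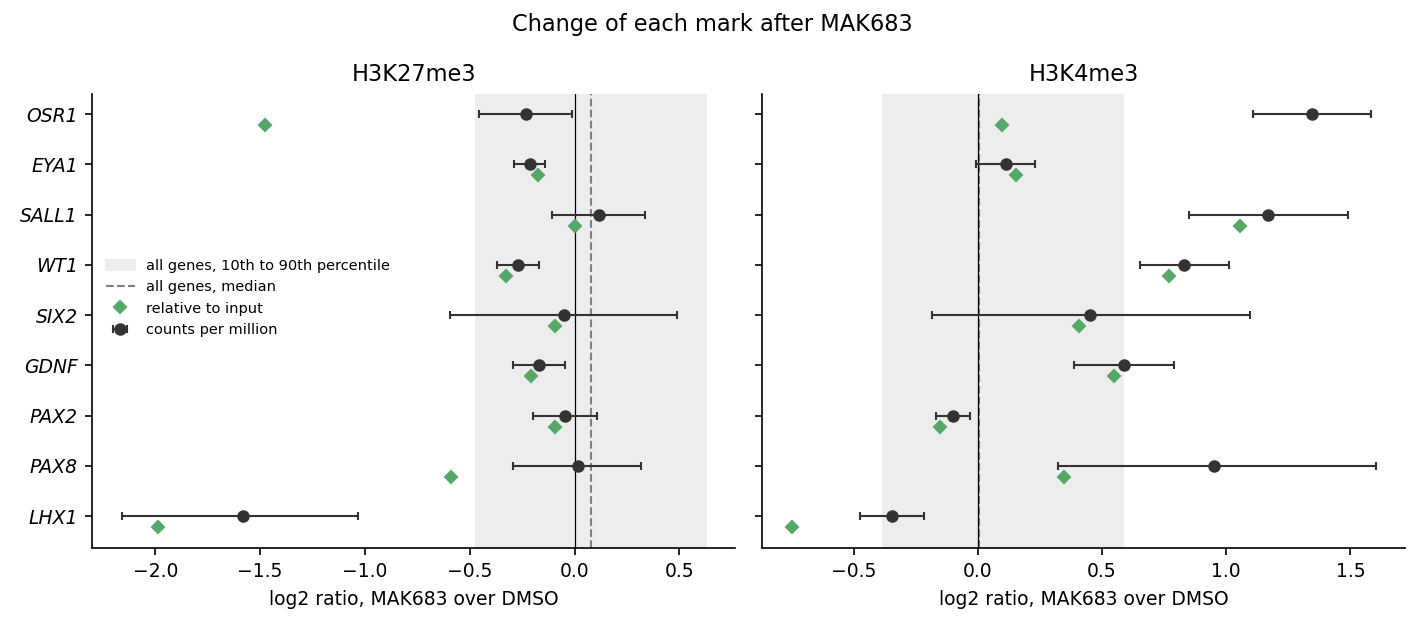
Change of H3K27me3 (left) and H3K4me3 (right) from DMSO to MAK683 (log2 ratio, x axis) for the 9 genes in CPM (circles with 95% counting intervals) and relative to the change of the input (diamonds, no intervals drawn), with the 10th to 90th percentile of all genes in gray and their median dashed. LHX1 lies at -1.58 for H3K27me3, apart from the others. For H3K4me3, OSR1 falls from 1.34 to 0.10 when set against its input, while SALL1 and WT1 move little.

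Antisense genes with counts start close to or run through 3 of the genes. Long noncoding genes on the opposite strand at EYA1, SALL1 and LHX1 are annotated but not in the count table. WT1-AS starts 46 bases from the start of WT1 on the other strand and shares 47 bases with it. WT1-AS had 1208 H3K27me3 counts with DMSO and 635 with MAK683, 183 and 316 H3K4me3 counts, and 288 and 318 input counts. Its levels resembled those of WT1, 1.88 (1.69 to 2.07) for H3K27me3 in DMSO and -0.99 (-1.26 to -0.72) for H3K4me3, and its changes were -0.40 (-0.54 to -0.26) and 0.90 (0.64 to 1.17). Both genes thus moved the same way in both marks, as sums over genes that do not place the change at the WT1 start. GDNF-AS1 differed from GDNF in H3K4me3, with 395 and 376 counts and a change of 0.046 (-0.16 to 0.25), while its H3K27me3 fell by a log2 of -0.30 (-0.44 to -0.16). PAX8-AS1, with 53 and 42 H3K27me3 counts and 51 and 83 input counts, was at -0.13 (-0.70 to 0.44) in DMSO. This was below the level counted at the start of PAX8. The 60585 bases that PAX8-AS1 shares with PAX8 seem not to have been counted for either gene. These values therefore do not describe the body of PAX8.

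Among the other 62 kidney genes, H3K27me3 in DMSO was at least 2-fold over input at 21 of 60 measured, with a median of 0.28. H3K4me3 was at least 2-fold over input at 20 of 61. After MAK683, H3K27me3 was lower at 16 of 60 and higher at 8, with a median change of -0.14, and H3K4me3 was higher at 18 of 61 and lower at 6, with a median of 0.070. Both medians were below those of the 9 genes, 1.32 for the H3K27me3 level and 0.59 for the H3K4me3 change. The difference was not tested. Over all genes, 15.4% had H3K27me3 and 23.9% H3K4me3 at least 2-fold over input in DMSO. After MAK683, H3K27me3 was lower at 18.5% and higher at 31% of all genes, and H3K4me3 higher at 24.3% and lower at 17.7%. The same shares apply to the lists below, which are short, and counts near them are no result about a list.

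The 11 other genes of the cap mesenchyme differed most from the 9 in H3K4me3, which was at least 2-fold over input at 7 of them. H3K27me3 was at least 2-fold over input at 4, lower after MAK683 at 2 and higher at 3, and H3K4me3 was higher at 2 and lower at 3. HOXD11, a homeobox gene of the metanephric mesenchyme, had 433 and 196 H3K27me3 counts and 180 and 267 H3K4me3 counts, with the highest H3K27me3 level of its list, 2.80. FGF20, a growth factor that keeps the progenitors alive, had a level of -1.25, the lowest among genes of the list with a mean of at least 50 H3K27me3 counts, beside 1331 and 1066 H3K4me3 counts. MEOX1, a mesoderm homeobox gene, had the lowest H3K4me3 change, -0.54, with 1711 and 1084 counts.

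Of the ureteric bud and GDNF to RET signaling genes, 4 of 12 had H3K27me3 at least 2-fold over input and 5 of 13 had H3K4me3. H3K27me3 was lower at 5 and higher at 2, and H3K4me3 higher at 3 and lower at 2. EMX2, a homeobox gene of the ureteric bud, had 473 and 222 H3K27me3 counts and 61 and 189 H3K4me3 counts, a gain of 1.73 that was above any of the 9. BMP4, a growth factor that restrains budding, had 4655 and 3127 H3K4me3 counts, a change of -0.46. Of the 8 early nephron genes, 3 had H3K27me3 and 5 H3K4me3 at least 2-fold over input, and H3K27me3 was lower at 3 and H3K4me3 higher at 3. DLL1, a Notch ligand of the renal vesicle, had 519 and 233 H3K27me3 counts and 410 and 595 H3K4me3 counts, with both marks over 2-fold in DMSO.

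Tubule genes had little H3K4me3 as counted over whole genes. Some are long, such as CUBN at 305.8 kb, and a mark at the start weighs less over a long gene. The part of length was not tested. Of 13 tubule genes, 3 had H3K27me3 at least 2-fold over input and 0 had H3K4me3, and UMOD, which encodes uromodulin of the thick ascending limb, had the highest H3K27me3 level, 1.49. Of 9 podocyte genes, 4 and 2 did. Of 7 renal stroma genes, 3 and 1 did, and MEIS1, a homeobox gene, had 1104 and 1684 H3K4me3 counts, a gain of 0.73. ALDH1A2, the retinoic acid enzyme, had 13521 and 8235 H3K27me3 counts.

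High H3K27me3 was also found at genes of other lineages. Of 9 neural crest genes measured, 5 had H3K27me3 at least 2-fold over input in DMSO, and H3K4me3 was higher after MAK683 at 5. SNAI2, a zinc finger factor of migrating crest, had 74 and 293 H3K4me3 counts, a gain of 2.09, and MSX2, a homeobox factor, had the highest H3K27me3 level of its list, 2.77. Of 9 endoderm genes, 8 did, led by SOX17 at 3.74, and H3K4me3 was higher at 5 of 10, with FOXA2 at 1.08. In CPM, the 10 housekeeping genes had H3K27me3 below input in each case, between -1.43 and -0.42. The median of all genes was also below input on that scale, at -0.61, and was -0.043 with TMM. H3K4me3 was at least 2-fold over input at all 10 housekeeping genes, with a median of 2.39.

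**Figure D4:**
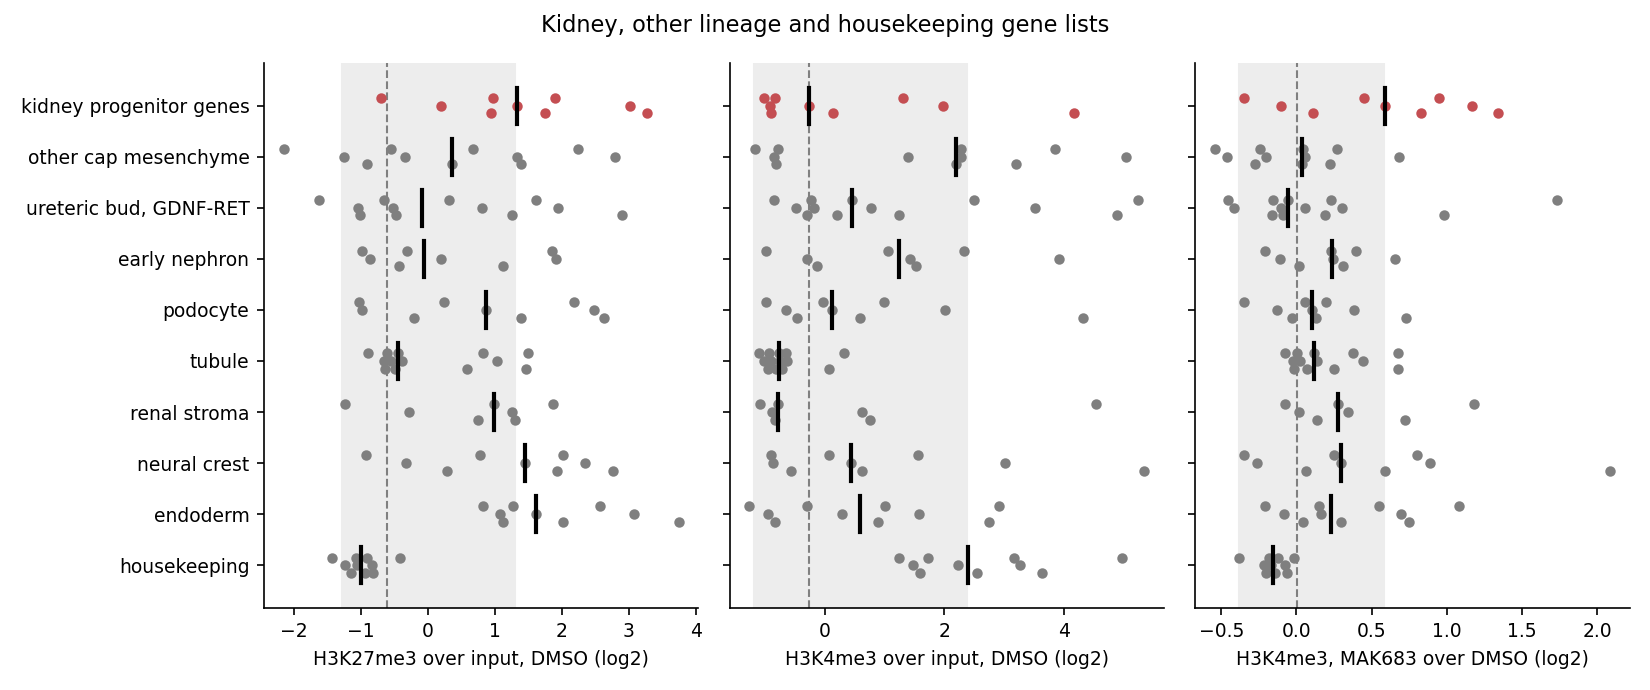
H3K27me3 over input in DMSO (left), H3K4me3 over input in DMSO (middle) and change of H3K4me3 (right), all log2, with 1 point per gene, the median of a list as a bar, the 9 kidney progenitor genes in red, and the median (dashed) and 10th to 90th percentile (gray) of all genes. The 9 genes have medians of 1.32, -0.27 and 0.59, and the endoderm genes have the highest H3K27me3 median, 1.61.

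By distance over the 4 levels (both marks in both treatments), the genes most like these were sought among 13252 other protein-coding genes. GRP, which encodes a neuropeptide, was nearest to WT1 at 0.12, and BCL11A, a zinc finger gene of blood and nerve cells, was nearest to GDNF at 0.14. Close matches under 0.2 were also found for EYA1 (CD200R1L), PAX2 (PIAS4), SIX2 (CYP2C19) and SALL1 (ETNPPL). OSR1 was matched only at 0.75, by PRDM13, a neural factor. LHX1 had the most distant nearest gene, NR2F2, a nuclear receptor, at 1.11. Within the 9, WT1 and GDNF were the closest pair, at 0.72. All of these values come from the same 6 libraries.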

How the data were processed

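ChIP-seq of H3K27me3 and H3K4me3, with input, was analysed in G401 cells after 3 days of DMSO or 3 µM MAK683. Per the labels and methods, the authors trimmed paired reads (Trim Galore 0.4.4), aligned them to hg19 with Bowtie2, depleted repeats with Picard 2.23.6 and assigned reads to genes with featureCounts. They deposited whole-number counts per gene. A Drosophila spike-in is described, but no factors were found, and whether the deposited counts carry the scaling is not known. CPM shows only how each library is shared among genes. The gene annotation and strand setting are not given in the sources used here. Peaks and the other assays of the study were not analysed here.

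CPM used each library's total over 56638 genes, of which 18839 were at 0 in all 6 libraries, and a pseudocount of 0.05 CPM. A gene was compared where 1 or both libraries held 10 or more counts. A floor of 3 counts was worth 0.141 to 0.225 CPM. Calls were 2-fold over input for levels and 1.2-fold for changes. Intervals are exact Clopper-Pearson or Poisson (Python 3.11.15 with pandas 2.3.3, numpy 2.4.6 and scipy 1.17.1, plots by matplotlib 3.10.9). TMM factors came from edgeR 4.0.16 in R 4.3.3. Positions came from GENCODE release 44 (GRCh37), in which 33477 symbols were found as written and 1795 through an older symbol, 62.3% of the table. RefSeq windows were matched by symbol for 5 of the 9 genes.

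The 9 genes and the other lists were chosen with earlier results of these data known, and they are described by counts and medians beside all genes. Also named are genes that overlap a member or start within 5 kb of one, the highest and lowest gene of each other list for H3K27me3 over input in DMSO and for the H3K4me3 change (mean of at least 50 counts), and the nearest gene to each of the 9 (at least 200 input counts). A few genes that this rule names are not reported here. The scripts were checked on simulated counts. Alternatives were other scales, pseudocounts, filters, autosomes, the summed input, a change relative to input and a 1.5-fold threshold. Values relative to genes of like GC content were added after seeing the data.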

Additional observations from a re-analysis of the deposited data

How the results depend on the processing

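The number of genes at least 1.2-fold lower in H3K27me3, 2 of the 9 as reported, was 4 with median-of-ratios scaling, 5 with TMM, 1 with autosomes only, 9 in the counts as deposited, 4 relative to the change of the input and 4 relative to genes of like GC content. The gene lost with autosomes only was WT1. The median H3K27me3 change, -0.17 as reported, was -0.27 with TMM and -0.70 in the counts as deposited. Both scales also move the value of all genes, whose median H3K27me3 change was 0.079 in CPM, -0.020 with TMM and -0.44 as deposited, and whose median H3K27me3 level in DMSO was -0.61 in CPM and -0.043 with TMM. The cause of the other shifts was not tested. The counts and medians of H3K4me3 changes and of levels of both marks kept their direction and stayed within 1.5 times or within the spread among the 9 genes, except that the median H3K4me3 level in DMSO, -0.27, was 0.0043 with median-of-ratios scaling. The H3K27me3 fall at LHX1 was between -2.09 and -1.29 over 10 alternatives. Values that changed sign without a call were the H3K27me3 change of PAX8 (5 of 10 alternatives) and SALL1 (1), the H3K4me3 change of EYA1 (1), the H3K27me3 level of PAX2 in DMSO (1), the H3K4me3 level of GDNF and PAX8 in DMSO (1 each), and that of WT1 in MAK683 (2). GC content was known for all 9 genes and for 20678 of the 29931 genes of the H3K27me3 change. Depth limits SIX2 and PAX8 most, with 37 and 32 H3K4me3 counts in DMSO. No paired analysis was possible because each treatment had 1 library per antibody.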
